A study of Mus musculus with 2 samples.

Results

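Slow-cycling carcinoma cells were taken as the tumour cells with the least RNA of 12 S phase and G2/M genes, in 2 droplet single-cell RNA libraries of mouse tumours. A gate kept barcodes with at least 500 detected genes, at most 20% mitochondrial transcripts, at least 10000 unique molecular identifiers (UMIs, counted RNA molecules), 0 UMIs of the leukocyte gene Ptprc, and at least 3 UMIs each of the keratin gene Krt8 and of Rhox5, an X-linked homeobox gene carried by these tumour cells. Of 14145 barcodes, 8735 passed. The score of a cell was the share of its UMIs from Mcm3, Mcm5, Mcm6, Pcna, Tyms, Rrm2, Mki67, Top2a, Cdk1, Ccnb1, Cenpf and Ube2c. The 10% with the lowest score over both libraries, 874 cells, are called low-score cells here, and the other 7861 the rest of the gate. The PKCi library gave 454 low-score cells and the control library 420.

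The PKCi group were C57BL/6 mice with CMT167R tumours under the skin, given a compound labelled PKCi at 3 mg/kg each day into the peritoneum, and the control group carried the same tumours and were given solvent. Both groups are labelled WT. CMT167R is labelled as resistant to anti-PD1, and descends from CMT167, a lung carcinoma line of mice. Tumours were collected once the control tumours had reached a set volume. How many mice or tumours entered each library is not given in the labels, and there was 1 library per treatment, so no difference between treatments has a replicate check and no test was possible. Every interval below is a 95% interval that treats UMIs, or cells, as independent and covers counting error only.

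As background, dividing cells make the RNA of replication genes around S phase, when E2F factors release them, and the RNA of mitotic genes in G2, when B-MYB and FOXM1 act on them. In resting and early G1 cells the retinoblastoma family and the DREAM complex hold both sets down through E2F and CHR elements in their promoters. Low levels of such RNA are therefore shared by cells that have left the cycle and by cells in G1 between divisions. A single sample of RNA does not tell these apart, and the length of the cycle was not measured, so the name slow-cycling is used only for the rule.

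The promoters of the score genes are shown first, because the cells were chosen on these genes. The RefSeq window used runs from 250 bases before to 50 bases after the start of a gene in GRCm38.p6, and 1 window per gene, the first listed, was read. Mcm6 (minus strand, chr1:128359656-128359955) and Mcm5 (plus strand, chr8:75109259-75109558) encode parts of the replicative helicase. Cdk1 (minus strand, chr10:69352863-69353162) encodes the kinase that drives mitosis, and Ube2c (plus strand, chr2:164769679-164769978) a ubiquitin-conjugating enzyme that ends it. Mxd4 (minus strand, chr5:34187661-34187960), a repressor that competes with MYC for its partner MAX, is shown as a gene that was higher in the low-score cells. Capitals mark TTTGAA, the letters of the CHR element, and the E2F letters TTTGGCGC, TTTCCCGC, TTTGCCGC and TTTCGCGC, each searched on both strands, where matches of the E2F letters can overlap. The Mxd4 window holds none of these letters.
Mcm6: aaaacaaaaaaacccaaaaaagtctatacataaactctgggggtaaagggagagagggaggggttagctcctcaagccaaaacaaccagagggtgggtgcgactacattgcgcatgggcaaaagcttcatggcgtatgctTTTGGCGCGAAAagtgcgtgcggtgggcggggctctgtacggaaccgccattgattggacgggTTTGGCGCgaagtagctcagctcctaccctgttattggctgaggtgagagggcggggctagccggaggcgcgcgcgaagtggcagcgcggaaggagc
Mcm5: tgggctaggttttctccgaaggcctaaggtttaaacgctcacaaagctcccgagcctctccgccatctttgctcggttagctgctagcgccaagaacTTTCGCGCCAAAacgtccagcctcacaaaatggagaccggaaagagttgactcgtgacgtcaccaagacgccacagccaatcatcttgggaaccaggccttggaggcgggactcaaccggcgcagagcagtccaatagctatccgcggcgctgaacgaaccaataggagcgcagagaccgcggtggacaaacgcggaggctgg
Cdk1: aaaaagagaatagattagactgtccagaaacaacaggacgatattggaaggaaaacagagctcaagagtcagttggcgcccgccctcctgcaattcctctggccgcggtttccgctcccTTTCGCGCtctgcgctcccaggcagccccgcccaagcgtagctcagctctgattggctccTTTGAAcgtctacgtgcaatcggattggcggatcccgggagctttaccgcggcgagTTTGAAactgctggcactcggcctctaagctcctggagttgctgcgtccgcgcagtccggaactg
Ube2c: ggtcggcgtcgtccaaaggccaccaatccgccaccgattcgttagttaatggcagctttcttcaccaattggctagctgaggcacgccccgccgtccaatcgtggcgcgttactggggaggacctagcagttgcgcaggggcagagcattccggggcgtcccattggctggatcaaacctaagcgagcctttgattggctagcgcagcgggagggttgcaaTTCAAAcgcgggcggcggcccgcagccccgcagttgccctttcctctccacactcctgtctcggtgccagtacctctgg
Mxd4: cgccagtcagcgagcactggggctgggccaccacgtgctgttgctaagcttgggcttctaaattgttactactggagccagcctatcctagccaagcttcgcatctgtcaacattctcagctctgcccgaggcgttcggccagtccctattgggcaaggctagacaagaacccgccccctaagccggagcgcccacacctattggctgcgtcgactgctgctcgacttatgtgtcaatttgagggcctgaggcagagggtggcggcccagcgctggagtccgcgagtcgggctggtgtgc

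The CHR letters stood in the windows of 5 of the 6 G2/M score genes (Mki67, Top2a, Cdk1, Cenpf and Ube2c, not Ccnb1) and in 0 of the 6 S phase score genes. The E2F letters stood in 3 of the 6 S phase score genes (Mcm3, Mcm5 and Mcm6) and in Cdk1. Of all 27025 windows, 18.1% held the CHR letters and 2.32% the E2F letters. Among the 34 other G2/M genes with a window, 24 held the CHR letters (70.6%) and 1 the E2F letters. Among the 30 other S phase genes with a window, 10 held the E2F letters (33.3%) and 4 the CHR letters. Of the 12 genes named below as higher in low-score cells, 11 had a window, of which 4 held the CHR letters (36.4%) and 0 the E2F letters. Of the 12 named as lower, 8 had a window, of which 3 held the CHR letters (37.5%) and 3 the E2F letters. The share with the CHR letters was thus close in these 2 sets. CCAAT, the letters bound by NF-Y, stood in 11 of the 12 score genes and in 37.9% of all windows. A match describes letters in a window and not a bound site.

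The score separated the cells without a gap. The highest score of a low-score cell was 274.461 CPM (UMIs per 1e6 UMIs) and the lowest score outside was 274.608 CPM, against a gate median of 1649 CPM. Within 10% of the highest low score lay 293 cells, 153 of them low-score cells. Of all gate cells, 10 had 0 UMIs of all 12 genes. The low-score cells made up 10.1% (9.28 to 11.1) of the PKCi gate and 9.86% (8.98 to 10.8) of the control gate, a ratio of 1.03 (0.907 to 1.17). That interval holds equal shares.

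**Figure D1:**
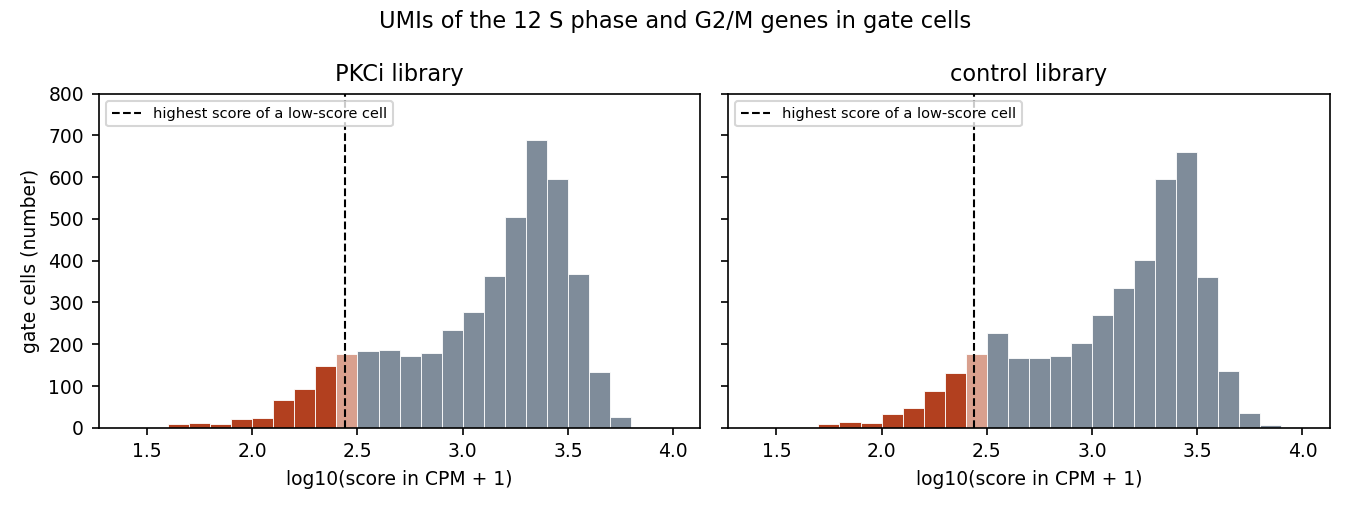
Number of gate cells by log10(score in CPM + 1) in the PKCi and control libraries; dark red bars hold only low-score cells, the pale red bar holds the highest low score (dashed line), and grey bars hold the rest of the gate. In both libraries the highest bars lie between 1994 and 3161 CPM, and many cells lie at lower scores. There the control library has a smaller peak at 315 to 397 CPM (226 cells, against 185 in PKCi). The limit of 274.461 CPM lies just below this range, with no gap.

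Krt8, Rhox5 and Ptprc were used by the gate, so their presence or absence was fixed and only their levels are described. The minimum of 3 UMIs also sets a floor on the CPM of Krt8 and Rhox5. That floor is higher in cells with fewer UMIs. Low-score cells held fewer UMIs than the rest, so the gate bears on these levels too. Krt8, the keratin of simple epithelia, stood at 593 CPM in PKCi low-score cells against 501 CPM in the rest of that gate, and at 494 CPM in control low-score cells against 392 CPM in the rest. Rhox5 stood at 440 CPM against 478 CPM in the PKCi library and at 497 CPM against 549 CPM in the control library. The 8 macrophage markers summed to 66.4 CPM in PKCi low-score cells (72.8 in the rest) and 40.0 CPM in control low-score cells (52.0 in the rest), against 17381 and 20927 CPM in the PKCi and control leukocyte barcodes of the same libraries (at least 3 UMIs of Ptprc and 0 of Krt8 and Rhox5). None of these 8 was at 0. Of the T or NK cell markers 3 of 8, of the dendritic cell markers 2 of 7 and of the mast cell markers 4 of 5 were at 0 in the low-score cells, and the lists summed to at most 2.03, 12.8 and 0.0846 CPM in either library. The 6 neutrophil markers summed to 8.13 CPM in PKCi low-score cells (6.55 in the rest) and 57.8 CPM in control low-score cells (43.8 in the rest). The 6 pericyte markers summed to 20.2 against 13.3 CPM in the PKCi library and to 22.1 against 15.1 CPM in the control library. The 6 fibroblast markers summed to 367 CPM in PKCi low-score cells against 108 CPM in the rest. In control low-score cells they summed to 673 CPM against 138 CPM in the rest, and to 471 CPM without 1 barcode described below. Col3a1 gave 305 and 418 CPM of the sums in low-score cells. Col3a1, Dcn, Lum and Pdgfra were higher in low-score cells in both libraries. In the PKCi library Col1a1 and Col1a2 were lower there, at 1.02 against 1.35 CPM and 0.762 against 1.24 CPM. In leukocyte barcodes this list summed to 10.3 and 18.8 CPM. The part of fibroblast RNA in the matrix genes below was not tested. Xist, an RNA of female cells, had a UMI in 3.08% of PKCi low-score cells against 3.48% of the rest, and in 1.90% of control low-score cells against 2.55% of the rest.

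The low-score cells held fewer UMIs than the rest of the gate. Their median was 24145 UMIs against 39322 in the rest of the PKCi gate, and 26104 against 40926 in the control gate. Thinned to 10000 UMIs each, they still showed fewer genes, 2983 against 3230 in the PKCi library and 3034.5 against 3249 in the control library. Mitochondrial medians lay close, at 1.42% against 1.52% in the PKCi library and 1.62% against 1.72% in the control library. Ribosomal protein genes took 31.9% of the UMIs of PKCi low-score cells against 29.5% in the rest, and 31.4% against 28.8% in the control library. Between the libraries, 4 barcodes of the gate were shared, and 0 of the low-score cells.

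The 12 score genes are given as a description, since the cells were chosen on them. In PKCi low-score cells they ranged between 2.37 and 46.1 CPM, against 67.7 to 484 CPM in the rest of the gate, and in control low-score cells between 2.37 and 42.1 CPM, against 73.7 to 520 CPM. Ccnb1, the cyclin of mitosis, was the lowest, at 2.37 CPM against 75.9 CPM in the PKCi library and 2.37 CPM against 73.7 CPM in the control library. Mcm6 kept the most RNA, 46.1 CPM against 155 CPM and 42.1 CPM against 164 CPM. Mcm6, Pcna (the sliding clamp of replication) and Mcm3 differed least from the rest, while Mcm5, another helicase gene, stood at 4.74 against 67.7 CPM and at 3.80 against 74.5 CPM.

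All other differences between low-score cells and the rest of the gate are descriptions too, with no test, because the same cells' RNA set the score. A gene was taken as measured with at least 50 UMIs over the 2 sums compared and 50 CPM in at least 1 of them, and called with a ratio of at least 1.5 whose interval excluded 1 in both libraries. Of 3271 genes measured in both libraries without the 12 score genes, 178 were called higher (5.44%) and 399 lower (12.2%) in low-score cells. The median log2 ratio over all of them was -0.12 in each library. Cells of 20000 to 40000 UMIs on both sides gave 106 higher and 203 lower genes, of which 101 and 202 were among those above. Part of the 178 and of the 399 genes reached 50 CPM on 1 side only. Such genes could be called in that direction alone. The shares of 5.44% and 12.2% are the ones to set beside the list counts below.

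The 12 genes with the lowest ratios encode proteins known from DNA replication or mitosis. Hmmr, a spindle protein (chromosome 11, 40701395 to 40733422, minus strand), stood at 1.69 CPM against 65.1 CPM in the PKCi library and at 1.60 CPM against 62.6 CPM in the control library. Pclaf, which binds the PCNA clamp at replication forks, stood at 7.45 against 226 CPM and at 8.87 against 233 CPM. Birc5 (survivin), which joins with the kinase Aurkb at centromeres, stood at 10.9 against 233 CPM and at 10.5 against 215 CPM, and Aurkb at 1.86 against 54.6 CPM and at 2.79 against 58.1 CPM. The others were Hist1h1b, Kif4, Pimreg, Kif15, Nusap1, Cenpe, Ccna2 and Clspn, and over the 12 the log2 ratio lay between -5.23 and -4.26 in the PKCi library and between -5.28 and -4.28 in the control library. Each of the 12 stood at 10.9 CPM or less in the low-score cells of both libraries. All 12 reached 50 CPM only in the rest of the gate, so they could be counted only by being low.

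The wider cell cycle lists were lower throughout, where 12.2% of all genes were called lower. Of 40 further S phase genes, 20 were measured and all 20 were called lower, with medians of -2.15 and -2.19 (PKCi and control library). Of 40 further G2/M genes, 24 were measured and all 24 were called lower, with medians of -3.36 and -3.50. The genes furthest from this were Slbp, which binds histone mRNA, at 46.7 against 87.6 CPM and 51.5 against 95.4 CPM, and Cks2, a small CDK partner, at 127 against 292 CPM and 126 against 299 CPM. These counts partly follow from the minimum: 19 of the 20 S phase and 20 of the 24 G2/M genes reached 50 CPM only in the rest of the gate, so they could not have been counted without being low. Without any minimum, all 40 genes of either list were lower in low-score cells in both libraries.

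Histone genes split. Most mRNAs of replication-dependent histones carry no poly(A) tail, and chemistry that primes on poly(A) sees only the tailed ones. Of 25 such genes 7 were measured, 5 lower and 2 higher, and the 5 reached 50 CPM only in the rest of the gate. Hist1h1b stood at 7.96 against 200.1 CPM in the PKCi library and at 6.67 against 197 CPM in the control library. Hist1h1c stood at 185 against 118 CPM and at 128 against 82.4 CPM, and Hist1h2bc at 366 against 214 CPM and at 226 against 133 CPM. The copies of histone genes are much alike, and how reads were split between them is not given in the sources used here.

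The genes that start the cycle differed less. Of 10 G1 cyclins, CDKs and Myc, 6 were measured and 0 were called in either direction. Ccnd1, the cyclin D that answers growth signals, stood at 263 CPM in PKCi low-score cells against 269 CPM in the rest, and at 204 against 227 CPM in the control library. Cdk4, its kinase, stood at 193 against 275 CPM and at 192 against 253 CPM. Myc stood at 661 against 594 CPM and at 619 against 499.9 CPM, so neither cyclin D1 nor Myc RNA was far from the rest of the gate. The E cyclins, which act at the entry into S phase, were under the minimum and low: Ccne1 at 4.23 against 18.1 CPM and 4.98 against 16.5 CPM, and Ccne2 at 2.37 against 27.8 CPM and 3.63 against 27.3 CPM.

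Of 8 CDK inhibitors 2 were measured, 1 higher and 1 lower, and each reached 50 CPM only in the set where it was high. Cdkn2c (p18, chromosome 4, 109660876 to 109667189, minus strand), which blocks CDK4 and CDK6, was higher, at 90.5 CPM against 34.3 CPM in the PKCi library and at 91.1 CPM against 32.8 CPM in the control library. After thinning to 10000 UMIs it was detected in 52.0% of PKCi low-score cells against 26.1% of the rest, and in 44.0% of control low-score cells against 25.7% of the rest, while leukocyte barcodes showed it in 11.8% and 11.02%. In all barcodes with at least 3 Ptprc UMIs, whatever their Krt8 and Rhox5, which can hold doublets with tumour cells, it was detected in 18.004% and 12.1%. Cdkn1a (p21), an inhibitor induced by p53, was lower, at 16.6 against 60.4 CPM and at 16.1 against 52.0 CPM. Cdkn1b (p27) stood at 59.5 against 34.4 CPM in the PKCi library and at 43.6 against 27.8 CPM in the control library, where it missed the minimum. Cdkn2d (p19) stood at 22.3 against 43.8 CPM and at 28.9 against 46.5 CPM, also under it. Of the 3 measured p53 targets, Cdkn1a was lower and neither Bax nor Mdm2 was called.

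Among the pocket proteins, E2F repressors and DREAM subunits, 4 of 19 were measured, 2 of them lower, and 3 of the 4 reached 50 CPM only in the rest of the gate. Mybl2 (B-MYB), which turns the complex into an activator, stood at 6.52 against 53.6 CPM and at 7.60 against 56.4 CPM. Tfdp1, the partner of E2F factors, stood at 40.5 against 83.3 CPM and at 43.2 against 87.1 CPM. The pocket protein genes Rb1 and Rbl2 were under the minimum, Rb1 at 13.7 against 11.8 CPM and 12.5 against 12.4 CPM, and Rbl2 at 9.99 against 11.1 CPM and 13.4 against 11.4 CPM. Their RNA therefore gave no call in either direction.

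Of 33 genes known to slow proliferation or mark quiescence, 11 were measured, 4 higher and 0 lower, against 5.44% and 12.2% of all genes. The medians were 0.28 and 0.42. Of these 11, 5 reached 50 CPM only in low-score cells, Mxd4 and Ypel3 among them, and could be counted only by being high there. Mxd4 (chromosome 5, 34173883 to 34187720, minus strand) stood at 72.8 against 20.7 CPM in the PKCi library and at 62.1 against 18.2 CPM in the control library. Ypel3, which slows the growth of several cell lines, stood at 51.6 against 18.8 CPM and at 54.7 against 16.7 CPM. Txnip, an inhibitor of glucose uptake and thioredoxin, and Bhlhe40, a transcriptional repressor, were the other two. Thinned detection of Mxd4 was 47.8% against 19.1% of cells in the PKCi library and 42.4% against 17.3% in the control library. It was 23.5% and 21.3% in leukocyte barcodes, and 25.2% and 18.4% in all barcodes with at least 3 Ptprc UMIs. Hence more of the low-score cells, and not only a few, carried it.

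The 12 genes with the highest ratios are given next with what each is known for. Ptn (pleiotrophin, a growth factor that binds heparin, chromosome 6, 36714929 to 36810220, minus strand) stood at 86.8 CPM against 20.5 CPM in the PKCi library and at 139 CPM against 20.7 CPM in the control library. Igfbp6, which binds insulin-like growth factors, stood at 104 against 24.3 CPM and at 79.6 against 21.0 CPM. Sema3a, a secreted guidance cue (chromosome 5, 13125414 to 13602565, plus strand), stood at 487 against 133 CPM and at 583 against 144 CPM. In the rest of the gate Ptn and Igfbp6 were present but under 50 CPM in both libraries, while Sema3a was over it.

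S100a4, a calcium-binding protein tied to cell motility (chromosome 3, 90603771 to 90606045, plus strand), had the highest level of the 12, at 2270.0 CPM against 770.2 CPM in the PKCi library and at 2066 CPM against 647 CPM in the control library. Id3, which keeps basic helix-loop-helix factors off DNA (chromosome 4, 136143497 to 136145755, plus strand), stood at 201 against 57.1 CPM and at 193 against 60.9 CPM. Col3a1, a fibrillar collagen, stood at 305 against 87.1 CPM and at 418 against 105 CPM. After thinning, Col3a1 was seen in 76.0% of PKCi low-score cells against 47.1% of the rest and in 73.1% of control low-score cells against 48.3% of the rest. It was seen in 8.02% and 7.09% of leukocyte barcodes, and in 18.9% and 19.0% of all barcodes with at least 3 Ptprc UMIs. More of the low-score cells than of the rest thus had it.

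The others of the 12 were Ly6c1, Mxd4, S100a16, the chemokine Ccl7, the claudin family gene Cldn34c1 and Cp, the copper-binding ceruloplasmin. Ly6c1 and Cldn34c1 have near copies in the genome, so their levels are uncertain. Ptn, Igfbp6, Mxd4, S100a16, Ccl7 and Cldn34c1 reached 50 CPM only in low-score cells, as did Ly6c1 in the PKCi library. These genes could be counted only by being high there. Over all 12 the ratio lay between 2.90 and 4.29 in the PKCi library and between 2.75 and 6.73 in the control library. Among cells of 20000 to 40000 UMIs the log2 ratios lay between 1.14 and 1.67 in PKCi and between 1.12 and 2.15 in control cells. Among those of 10000 to 20000 UMIs (131 PKCi and 83 control low-score cells) they lay between 0.47 and 1.17 in PKCi and between 0.66 and 2.12 in control cells. There Sema3a, Ccl7, Ly6c1 and Cldn34c1 stood at 0.47, 0.54, 0.56 and 0.56 in PKCi cells, under a ratio of 1.5. A few genes rested on few cells: the 5% of low-score cells with the most Ccl7 held 69.0% of its UMIs in the PKCi library and 81.1% in the control library. For Ptn these shares were 47.4% and 48.0%, while for Mxd4 they were 21.98% and 21.09%. After thinning, Ccl7 was seen in 20.9% of PKCi low-score cells against 12.1% of the rest, and in 17.4% against 13.2% in the control library. Leukocyte barcodes showed it in 71.1% and 71.7%. The part of free leukocyte RNA in the Ccl7 level was not tested.

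**Figure D2:**
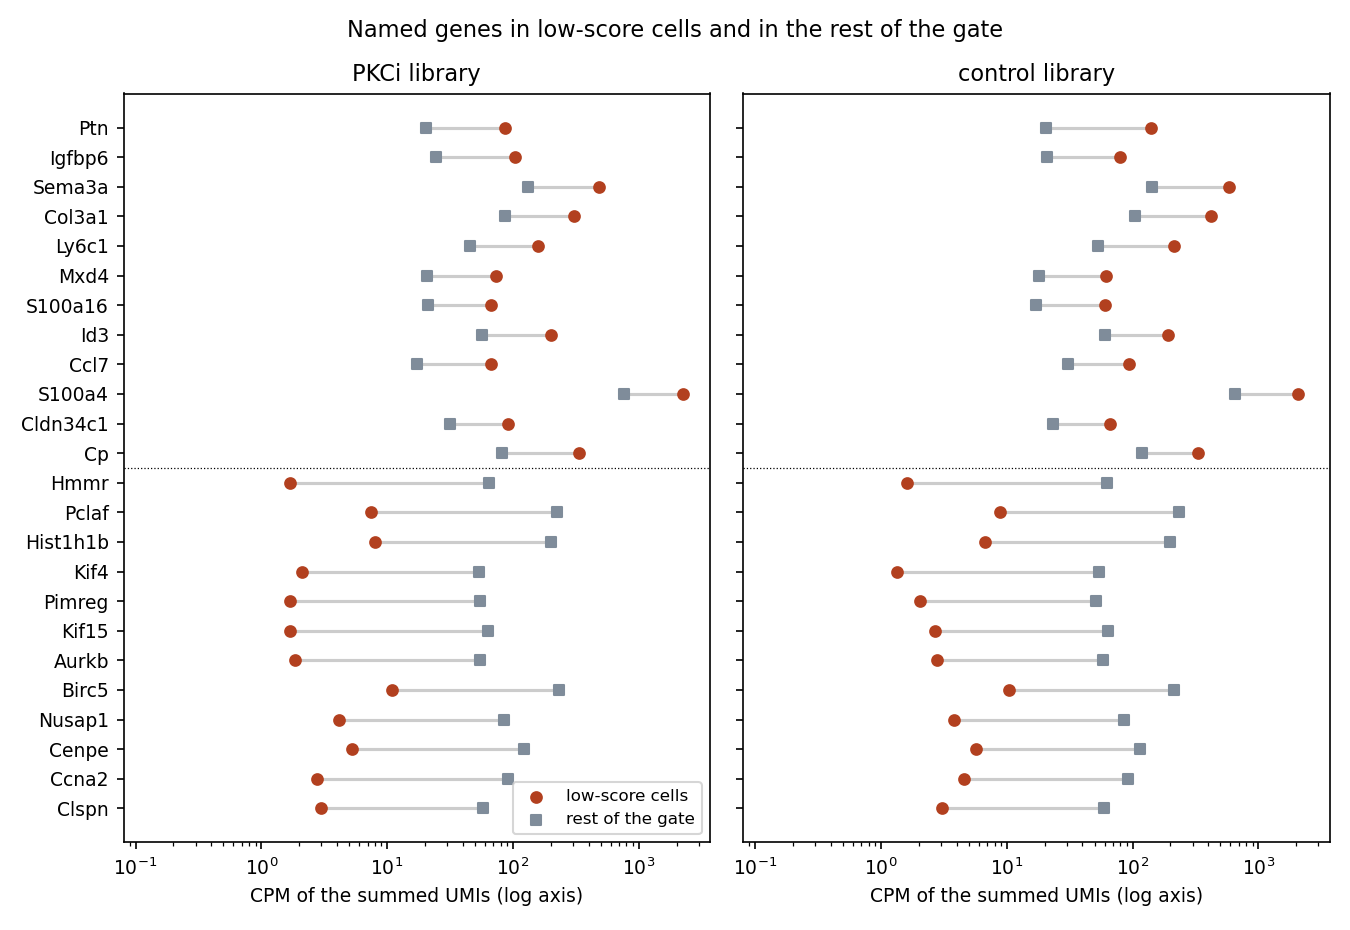
CPM of the summed UMIs (log axis) of the 12 genes furthest above and the 12 furthest below the rest, in low-score cells (red circles) and the rest of the gate (grey squares), by library; no intervals are drawn. The 12 genes above the dotted line were higher in low-score cells in both libraries, such as S100a4 at 2270.0 against 770.2 CPM in the PKCi library, and the 12 below it were lower.

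Of 25 genes linked to the senescence-associated secretory phenotype and other marks of senescence, 9 were measured. Of these, 7 were called higher (among them Cxcl1, Cxcl2, Ccl2, Ccl7, Igfbp4 and Igfbp7) and 1 lower, against 5.44% and 12.2% of all genes. The medians were 0.99 and 0.72, and 3 of the 9 reached 50 CPM only in low-score cells and 1 only in the rest. Igfbp4, which holds back insulin-like growth factors, stood at 964 against 371 CPM and at 1146 against 395 CPM. The gene called lower was Lmnb1 (lamin B1), at 29.6 against 109 CPM and 27.8 against 119 CPM, a nuclear lamina gene whose RNA is known to be low in senescent cells and to be made with replication. Cdkn2a, an inhibitor that marks senescence, had 0 UMIs in the low-score cells of either library, and Cdkn2b had 0 in PKCi and 1 in control low-score cells. The list's name is not a reading of these cells.

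The lists of NF-kB targets, interferon genes and antigen presentation had medians above that of all genes. Of 30 NF-kB targets, cytokines and chemokines, 15 were measured, 7 higher and 0 lower, against 5.44% and 12.2% of all genes. The medians were 0.66 and 0.50, and 3 of the 15 reached 50 CPM only in low-score cells. The 7 were Cxcl1, Cxcl2, Cxcl10, Ccl2, Ccl7, Tnfaip3 and Vcam1, and 4 of them are also in the senescence list. Both measured interferon-induced genes were higher, Bst2 (tetherin) at 584 against 369 CPM and 558 against 358 CPM, and Ifi27 at 143 against 62.0 CPM and 96.2 against 54.6 CPM. Of 21 genes of MHC class I presentation, 13 were measured and 2 were called higher: Tap2, a peptide transporter, at 68.6 against 42.2 CPM and 68.9 against 42.9 CPM, and Tapbp (tapasin) at 130.0 against 69.9 CPM and 121 against 78.6 CPM. The other 11 were not called, and the medians of the list were 0.46 and 0.35.

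Matrix and mesenchymal genes were partly higher. Of 30, 20 were measured, with 8 higher and 0 lower, against 5.44% and 12.2% of all genes. The medians were 0.39 and 0.30. Fn1 (fibronectin) stood at 490.1 against 135 CPM in the PKCi library and at 329 against 127 CPM in the control library. Twist2 was not called, at 78.8 against 83.4 CPM and 89.2 against 92.9 CPM, nor was Tgfb1, at 50.02 against 55.1 CPM and 45.7 against 52.5 CPM. Among the 8 higher genes were Fn1, S100a4, S100a6, Sparc, Loxl2, Col5a1 and Mmp14, and neither Twist2, a transcription factor of mesenchymal cells, nor Tgfb1 was among them. Among epithelial genes only Krt8, which the gate used, and Tjp1, a tight junction protein, were measured, and neither was called.

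Stress lists differed from each other. Of 26 immediate early and AP-1 genes 17 were measured, 4 higher and 0 lower (medians 0.48 and 0.44). Fos stood at 1803 against 779 CPM in the PKCi library and at 922 against 444 CPM in the control library, and Dusp1, a phosphatase of MAP kinases, at 290.3 against 124 CPM and 216 against 92.0 CPM. Such genes also respond to the dissociation of tissue, and the part of this was not tested. Of 28 hypoxia and glycolysis genes, 19 were measured and 2 were higher (Adm and Bnip3l), and of 20 endoplasmic reticulum chaperone genes 12 were measured and 0 were called. Of 17 heat shock and dissociation genes 13 were measured, 2 higher (Fos and Dusp1) and 1 lower, the mitochondrial chaperone Hspd1, at 508 against 1044 CPM and 544 against 1035 CPM. The share called higher was thus largest in the immediate early list, at 4 of 17 genes against 5.44% of all genes.

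Genes of ribosome production were mostly lower, against 12.2% of all genes. Of 22 ribosome biogenesis and MYC target genes 19 were measured and 14 were called lower, with medians of -1.002 and -0.867, and 3 of the 19 reached 50 CPM only in the rest of the gate. Nolc1, a nucleolar phosphoprotein, stood at 120 against 272 CPM and at 141 against 289 CPM, and Pa2g4, a nucleolar growth regulator, at 122 against 264 CPM and at 133 against 271 CPM. At matched depth (20000 to 40000 UMIs) the medians were -0.77 and -0.63. Odc1, the first enzyme of polyamine synthesis, was not called, at 1130 against 1027 CPM and 1040 against 1094 CPM. So the list as a whole was lower while Myc RNA itself, given above, was not.

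Of 30 ATF4 targets and integrated stress response genes 15 were measured, 8 lower and 0 higher, against 12.2% and 5.44% of all genes. The medians were -0.91 and -0.62, and 4 of the 15 reached 50 CPM only in the rest of the gate. Mthfd2, an enzyme of mitochondrial folate metabolism, stood at 38.4 against 175 CPM and at 33.2 against 124 CPM, and Psat1, of serine synthesis, at 29.6 against 120 CPM and at 29.0 against 107 CPM. Of 22 genes of cholesterol and fatty acid synthesis 5 were measured and 2 were lower, Fdps and Fasn. Of these 5, 3 reached 50 CPM only in the rest of the gate. Of 22 respiratory chain genes, all measured, 1 was lower, Cycs (cytochrome c), at 134 against 246 CPM and 150 against 257 CPM. Thus the respiratory chain list, with medians of -0.14 and -0.14, lay at the level of all genes (-0.12).

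Genes of the lysosome and of autophagy were higher in part. Of 26, 17 were measured, 5 higher and 0 lower, against 5.44% and 12.2% of all genes. The medians were 0.47 and 0.49, and 3 of the 17 reached 50 CPM only in low-score cells. Map1lc3a, an LC3 protein that coats autophagosomes, stood at 122 against 50.5 CPM in the PKCi library and at 110 against 46.6 CPM in the control library. Gabarap, of the same family, stood at 497 against 242 CPM and at 449 against 231 CPM. Becn1, which starts autophagosomes, was not called, at 41.3 against 51.3 CPM and 44.5 against 50.4 CPM. The autophagy genes that differed were those of the LC3 family with Sqstm1 (its cargo receptor) and the lysosomal membrane protein Lamp2.

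Other lists gave single genes. Bcl2l11 (BIM, which promotes apoptosis) was higher, at 129 against 72.9 CPM and 116 against 67.7 CPM, as the only call among 5 measured BCL2 family and apoptosis genes. Of 15 PKC isoforms 4 were measured, 1 called higher and 0 lower, with medians of -0.09 and -0.11. Of the 4, 1 reached 50 CPM in both libraries only in low-score cells. Prkca, a conventional PKC isoform, was not called, at 46.5 against 74.0 CPM and 68.5 against 87.8 CPM. Dusp6 was the only call among 9 measured ERK feedback genes (higher), Wwc1 among 7 YAP targets (lower) and Gclm among 6 NRF2 and glutathione genes (lower). A single call in so short a list is too few to set against the shares of all genes, 5.44% higher and 12.2% lower. Malat1 and Neat1, long RNAs kept in the nucleus, were both higher: Malat1 stood at 12969 against 7016 CPM and at 12619 against 6828 CPM, Neat1 at 265 against 171 CPM and at 316 against 204 CPM. The low-score cells had fewer UMIs and a lower median mitochondrial share than the rest in both libraries. A high share of nuclear RNA can also come from damaged cells, and its part here was not tested.

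**Figure D3:**
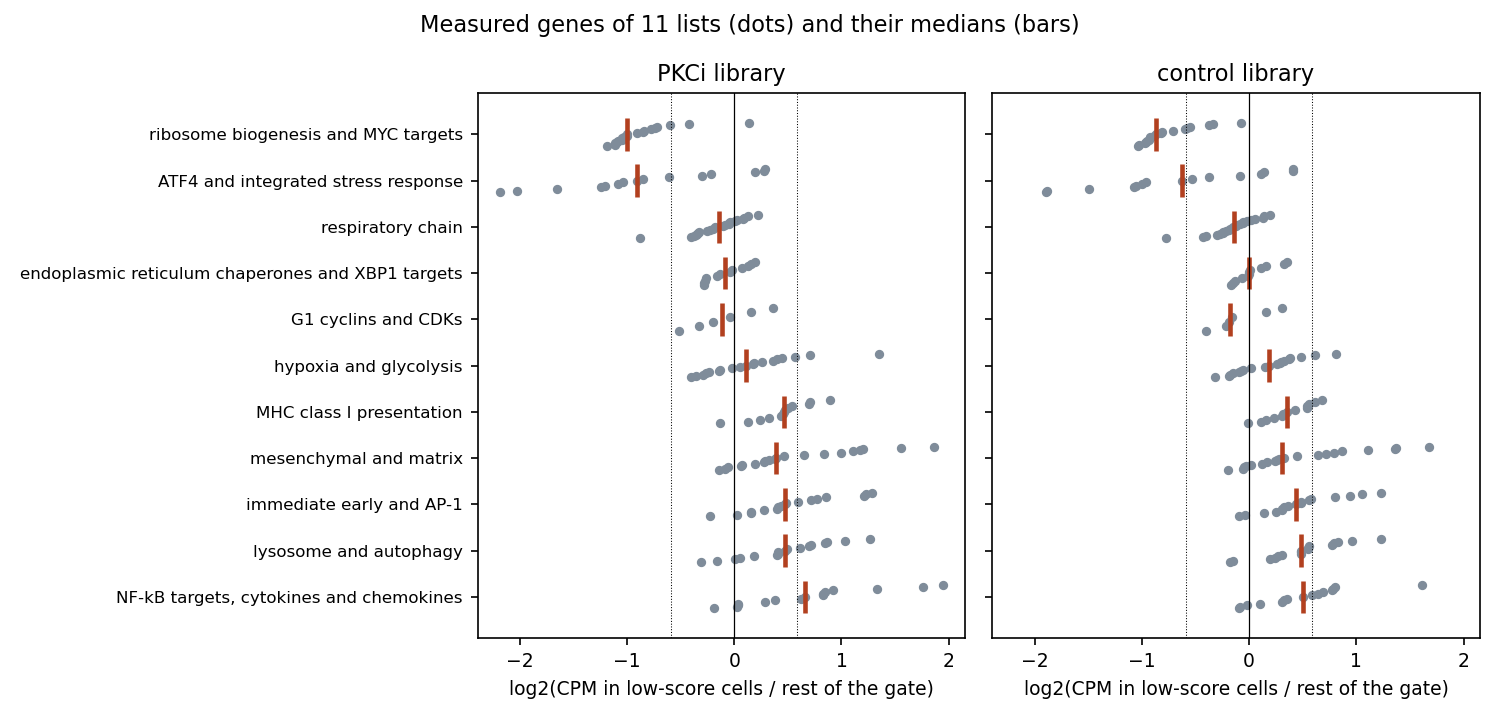
log2 ratio of CPM in low-score cells over the rest of the gate, for each measured gene (dots) of 11 lists, with the list's median (red bar), by library; dotted lines mark a ratio of 1.5 in either direction. Ribosome biogenesis and MYC targets lie furthest to the left (medians -1.002 and -0.867) and NF-kB targets, cytokines and chemokines furthest to the right (0.66 and 0.50), while G1 cyclins and CDKs lie near 0.

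Along the score, most of these differences were graded. The gate was cut into 10 equal parts by score over both libraries, with the low-score cells as the lowest. Mxd4 stood at 72.8, 53.5, 40.9, 28.1, 18.9, 14.7, 11.8, 11.2, 12.2 and 15.5 CPM in the PKCi library, in order of rising score. In the control library it stood at 62.1 CPM in the lowest part, 9.79 CPM in the seventh and 14.9 CPM in the highest. The level was thus graded over several parts, and the low-score cells were the end of a slope and not a step. Fos was lowest in the middle of the range, at 592 CPM in the fifth part of the PKCi gate and 325 CPM in the sixth part of the control gate, and stood at 865 and 569 CPM in the parts of highest score. G1 cyclins and CDKs summed to between 1488 and 1801 CPM over the parts of the PKCi gate and between 1381 and 1578 CPM over those of the control gate. Since all genes of a cell enter its total, these parts share their UMIs with the score, and no test was made.

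**Figure D4:**
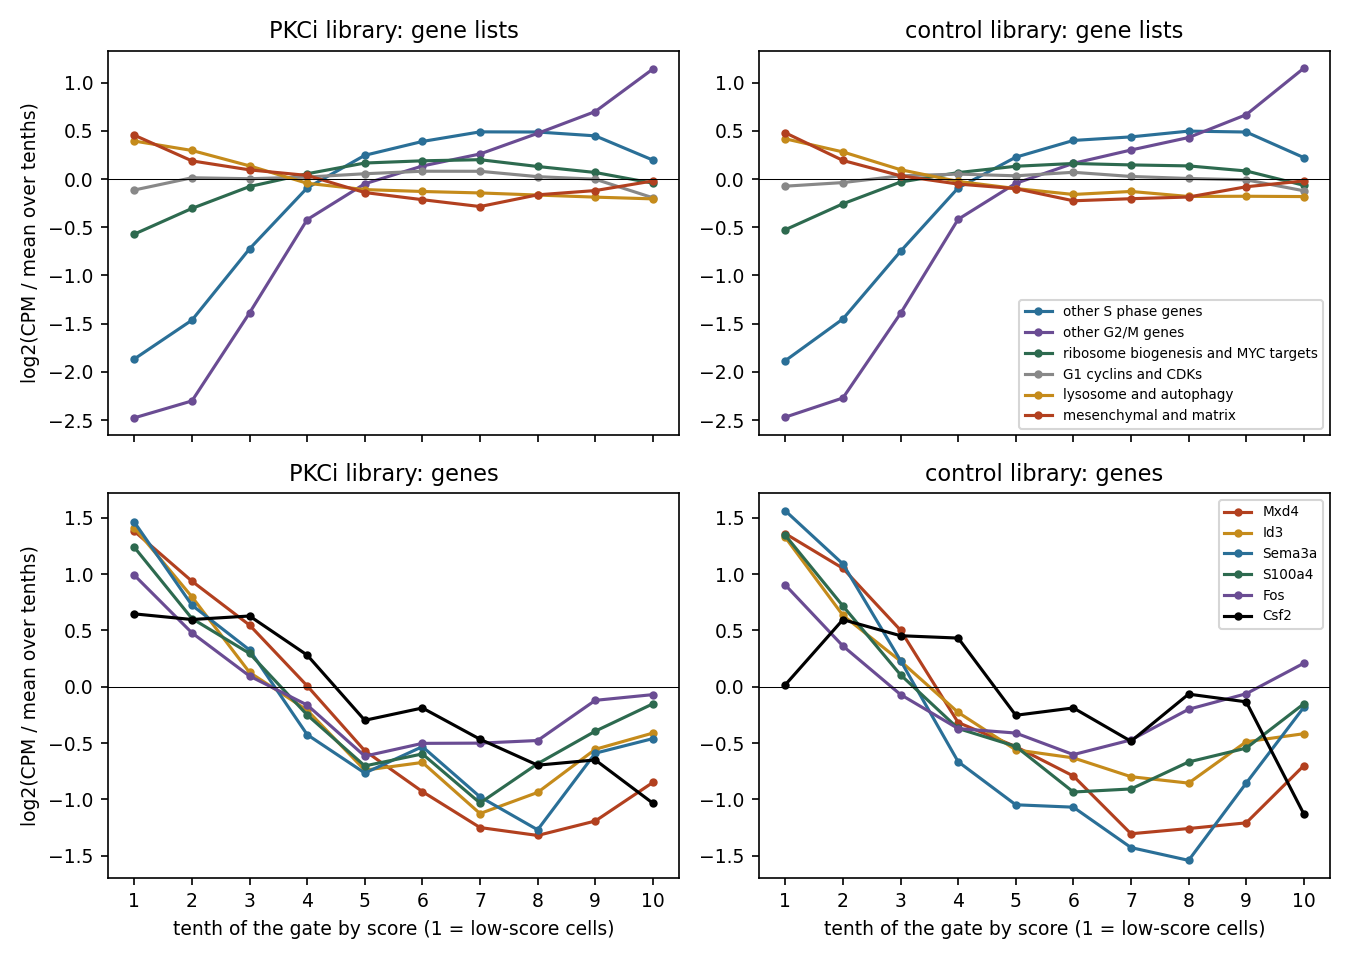
log2 of CPM over the mean of the 10 parts, by part of the gate in order of rising score (1 is the low-score cells), for 6 gene lists (top) and 6 genes (bottom) in each library. The other G2/M genes climb with the score. The other S phase genes climb to part 7 in PKCi and part 8 in control and are lower in part 10. Mxd4, Id3, Sema3a and S100a4 are highest in part 1 and lowest in parts 7 or 8, or 6 for S100a4 in control.

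The libraries were then compared within the low-score cells, which the score did not choose by library. Of 3031 genes measured, 34 were called higher in PKCi than in control low-score cells (1.12%) and 31 lower (1.02%), and the median log2 ratio over all genes was -0.01. In the rest of the gate, 17 of 3286 genes were called higher (0.517%) and 15 lower (0.456%). Scaling with TMM factors gave 44 higher and 24 lower in the low-score cells, so that 64.7% of the calls were higher in place of 52.3%. With 1 library per treatment, a difference between libraries cannot be told apart from one between tumours.

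Csf2 and Cxcl10, both secreted, had the highest ratios between the treatments. Csf2 (GM-CSF, a growth factor of myeloid cells, chromosome 11, 54247271 to 54249667, minus strand) stood at 136 CPM in PKCi low-score cells against 29.9 CPM in control low-score cells, a log2 ratio of 2.18. In the rest of the gate it stood at 76.5 against 28.0 CPM (1.45). After thinning it was detected in 38.1% of PKCi low-score cells against 10.2% of control ones, in 29.9% against 13.3% of the rest, in 5.88% against 3.15% of leukocyte barcodes, and in 9.98% against 5.61% of all barcodes with at least 3 Ptprc UMIs. The detection in the tumour cells thus lay above that in both kinds of leukocyte barcode. Along the score, Csf2 stood at 131 and 134 CPM in parts 2 and 3 of the PKCi gate, near the 136 CPM of low-score cells. In parts 2 and 3 of the control gate it stood at 44.7 and 40.5 CPM, above the 29.9 CPM of low-score cells. The 5% of low-score cells with the most Csf2 held 39.1% of its UMIs in the PKCi library. In the control library they held 68.9% of 354 UMIs.

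Cxcl10, a chemokine that draws T cells (chromosome 5, 92346638 to 92348889, minus strand), stood at 258 CPM in PKCi low-score cells against 75.9 CPM in control ones (1.77), and at 76.4 against 43.4 CPM in the rest (0.81). It was held by few cells: the 5% of low-score cells with the most Cxcl10 had 55.4% of its UMIs in the PKCi library and 58.7% in the control library. Thinned detection was 37.7% against 24.3%, and 25.7% against 22.8% in leukocyte barcodes, which make this chemokine too. In all barcodes with at least 3 Ptprc UMIs it was 30.2% against 25.5%. The control share thus lay close to that in both kinds of leukocyte barcode. Gadd45g, a growth arrest gene, stood at 86.9 against 32.5 CPM (1.42), and Hes1, a Notch target that represses differentiation, at 109 against 44.0 CPM (1.31). In the rest of the gate their log2 ratios were 0.69 and 0.70. Zfp36, Fos, Atf3 and Rgs3 completed the 8 genes with the highest ratios, at 1.02, 0.97, 0.87 and 0.87, and their ratios in the rest were 0.68, 0.81, 0.74 and 0.69.

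Of 19 immediate early and AP-1 genes measured in the low-score cells, 6 were higher in the PKCi library (Fos, Fosb, Jund, Atf3, Zfp36 and Btg2) and 0 lower. Of all genes measured there, 1.12% were higher and 1.02% lower. Fosb stood at 619 against 363 CPM and Jund at 1216 against 768 CPM. Of the S phase and G2/M lists only 2 of 40 and 4 of 40 genes were measured here, of which 0 were called between the treatments, too few to read anything from. Cdkn2c, at 90.5 against 91.1 CPM, and Mxd4, at 72.8 against 62.1 CPM, were not called either.

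Among the 8 genes with the lowest ratios were both measured metallothioneins, which bind metal ions. Mt1 (metallothionein 1) stood at 577 CPM in PKCi low-score cells against 1551 CPM in control ones (log2 -1.43), and Mt2 at 292 against 735 CPM (-1.33). In the rest of the gate their log2 ratios were -1.24 and -1.25. Hmox1 (haem oxygenase 1) stood at 16.4 against 73.8 CPM (-2.17, and -2.03 in the rest). Its thinned detection was 7.93% against 23.6% of low-score cells, and 54.0% against 79.5% of leukocyte barcodes, which differed the same way. In all barcodes with at least 3 Ptprc UMIs it was 52.1% against 71.3%. Cebpd, a transcription factor of the acute phase, stood at 17.5 against 52.8 CPM (-1.59, and -1.69 in the rest). These 4 genes were lower in PKCi cells on either side of the score limit.

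Col1a2 and Col1a1 had the lowest ratios, and 1 cell made them. Col1a2 stood at 0.762 CPM in PKCi low-score cells against 73.7 CPM in control ones, and Col1a1 at 1.02 against 70.4 CPM, log2 ratios of -6.52 and -6.06. One control barcode held 852 of the 872 Col1a2 UMIs and 812 of the 834 Col1a1 UMIs, together with 684 Col3a1, 47 Dcn, 12 Krt8, 8 Rhox5 and 2 Xist UMIs. Without that barcode, an alternative chosen after seeing the data, the ratios were -1.11 for Col1a2 and -0.85 for Col1a1, and 9 and 12 UMIs in the PKCi cells stood behind them. Dcn (decorin, a matrix proteoglycan) stood at 14.7 against 57.0 CPM (-1.95), -1.50 without the cell with the most Dcn UMIs in each library and -1.05 in the rest. Pcdh7, a protocadherin, stood at 41.1 against 95.1 CPM (-1.21, and -0.76 in the rest). The fibroblast marker sum was lower in PKCi than in control low-score cells, 367 against 673 CPM, and without that barcode the sums were 367 against 471 CPM.

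Of 21 hypoxia and glycolysis genes measured, 5 were lower in PKCi low-score cells and 0 higher, against 1.02% and 1.12% of all genes. Adm (adrenomedullin) stood at 71.2 against 112 CPM, Plin2, which coats lipid droplets, at 80.9 against 135 CPM, and Bnip3, a mitophagy receptor, at 45.4 against 85.0 CPM. Pgk1, of glycolysis, stood at 520.0 against 807 CPM and Ero1l, which oxidises proteins in the endoplasmic reticulum, at 65.8 against 115 CPM. The median of the list was -0.43, and -0.39 in the rest of the gate.

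Among the 2799 genes measured between treatments in both sets, 27 were called higher in the low-score cells and 12 in the rest, 10 in both, and 23 and 14 were called lower, 12 in both. The 10 shared higher genes were 37.0% of the first list and 83.3% of the second, and the 12 shared lower genes 52.2% and 85.7%. Of the 50 called in low-score cells, 42 had a larger log2 size there than in the rest, but choosing genes by their call in one set favours that set. Of the 26 called in the rest, 14 had a larger size in the low-score cells. No test of the difference between the sets was possible.

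**Figure D5:**
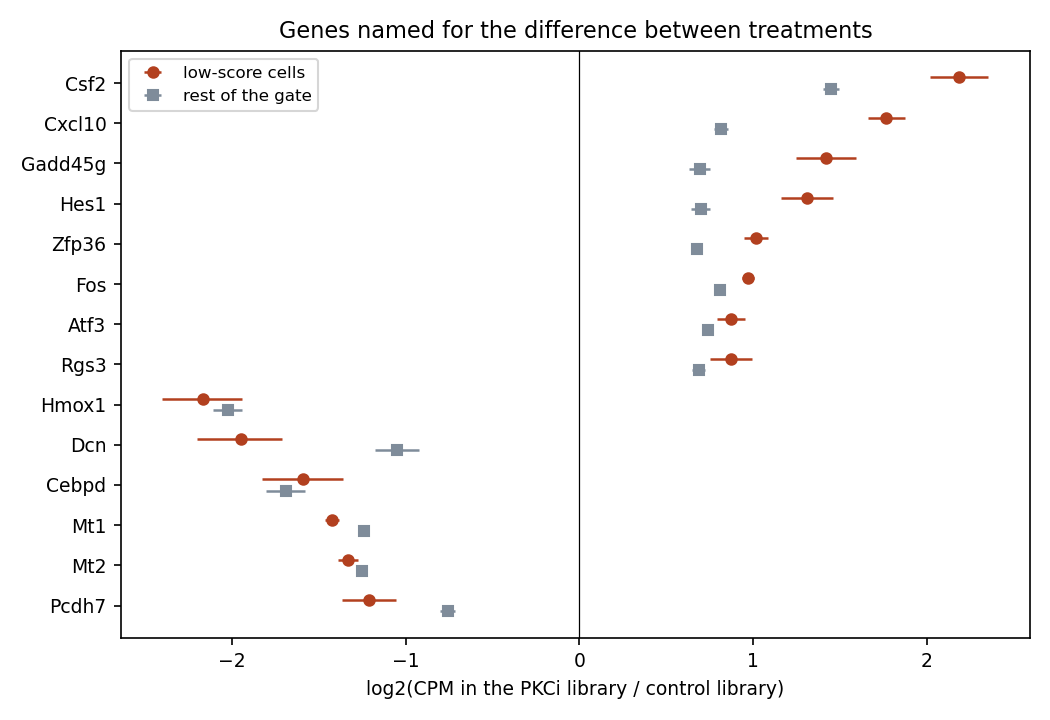
log2 ratio of CPM in the PKCi library over the control library, in low-score cells (red circles) and in the rest of the gate (grey squares), with 95% intervals for counting error only, for 14 of the 16 named genes; Col1a1 and Col1a2, which rested on 1 cell, are left out. The 8 genes at the top are above 0 and the 6 at the bottom below 0 in both sets, with Csf2 at 2.18 and 1.45.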

How the data were processed

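RNA of single cells was measured in 2 libraries, 1 per treatment. Per the labels' protocols, tumours were dissociated with a kit, filtered and run with 10x 3' chemistry. The deposited matrices hold counts of UMIs per gene and barcode over 32285 genes, made by the authors with Cell Ranger 7.0.0 per the file headers, and the submitters' processing notes name GRCm38 and Seurat. They were used as deposited, and background RNA was not removed.

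UMIs were summed over the low-score cells and over the rest of the gate in each library (11814842 and 173215976 UMIs in PKCi, 11838301 and 172644294 in control) and scaled to 1e6 UMIs of the sum (CPM). Log2 ratios had 0.5 count added to each sum. Intervals were exact Poisson for levels, exact conditional for ratios and Clopper-Pearson for shares of cells, with no test, using Python 3.11.15, numpy 2.4.6 and scipy 1.17.1. Ratios and calls were checked on simulated data. To compare shares of cells with a UMI, each cell was thinned to 10000 UMIs. Leukocyte barcodes passed the same minimums and had at least 3 Ptprc and 0 Krt8 and Rhox5 UMIs (187 in PKCi, 127 in control, median 14270 and 16202 UMIs). Because they were chosen to lack tumour cell RNA, they can understate free RNA. All 461 PKCi and 321 control barcodes with at least 3 Ptprc UMIs are given beside them for Csf2, Cxcl10, Cdkn2c, Mxd4, Col3a1 and Hmox1.

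Genes named against the rest of the gate are the 12 highest and 12 lowest called, ranked by the smaller log2 size of the 2 libraries, and between treatments the 8 highest and 8 lowest. From each of 31 lists, 2 measured genes at either end of the ratios and every G1 cyclin, CDK and CDK inhibitor, could be named; other list genes were chosen after their values were seen. Mitochondrial, ribosomal protein, haemoglobin, immunoglobulin, receptor, Y-linked and unnamed genes were not ranked. The members and lists were chosen with earlier results of these data known. Scrublet, run by scanpy 1.11.5, called 132 of 7210 PKCi and 111 of 6380 control barcodes as doublets, among them 1 PKCi and 2 control low-score cells, which were kept. TMM factors came from edgeR 4.0.16. Alternatives varied the score, the gate, the depth, the minimum and the scaling. Promoter windows, from RefSeq on GRCm38.p6, and gene positions, from GENCODE vM21 on GRCm38, were matched by symbol.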

Additional observations from a re-analysis of the deposited data

Results flagged for a closer look

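In 4 genes of the lists, the difference between treatments ran one way in low-score cells and the opposite way in the rest of the gate, with both intervals for counting error excluding no difference and both log2 sizes at least 0.1. The difference between these effects was not tested, since there was 1 library per treatment. Hspa5, the main chaperone of the endoplasmic reticulum, stood at 450 CPM in PKCi low-score cells against 501 CPM in control ones (log2 -0.15), and at 546 against 502 CPM in the rest (0.12). Cxcl1, a chemokine for neutrophils, stood at 3153 against 2790 CPM in low-score cells (0.18) and at 1666 against 1788 CPM in the rest (-0.10). Psmb10, a subunit of the immunoproteasome, stood at 82.2 against 66.6 CPM (0.30) and at 50.4 against 56.9 CPM (-0.17). Tapbp, which loads peptides on MHC class I, stood at 130.0 against 121 CPM (0.11) and at 69.9 against 78.6 CPM (-0.17). All 8 differences were under 1.5 times.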

How the results depend on the processing

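Of 71 alternative values of the 5 main results, 59 stayed close to the reported value and 12 moved by more than 1.5 times. The ratio of the share of low-score cells, PKCi over control, had no direction: it was 1.03, and 0.960 with the lowest 20% and 0.970 with at least 20000 UMIs, over a range up to 1.06. With the lowest 5% of cells, 35 genes were higher and 46 lower between treatments, so the balance of 34 and 31 turned. Fewer genes were called where only cells of 20000 to 40000 UMIs were used (106 higher and 203 lower than the rest of the gate) and where the score was taken after thinning to 10000 UMIs (20 lower between treatments). Lower minimums let more genes be counted: with 20 CPM, 300 higher and 786 lower than the rest and 56 higher and 69 lower between treatments, and with no minimum, 747 and 1334, and 274 and 529. Totals without mitochondrial and ribosomal protein genes gave 273 genes higher and 494 lower than the rest. Of the reported 178 and 399 genes, 178 and 351 were among them. With these totals every CPM is larger, so more genes reach the minimum, and log2 ratios to the rest shifted by at most 0.051. The part of each in the counts was not tested, nor was the cause of the other moves. TMM factors shifted log2 ratios to the rest by at most 0.042. Of the low-score cells, 72.8% remained with the thinned score and 59.0% with a score from the other S phase and G2/M genes. Of the values of named genes and lists, 1177 stayed close and 359 moved. Leaving out the control barcode with over 100 Col1a1 UMIs, and the cell with the most UMIs of a gene, were chosen after seeing the data. No replicate could be left out. No paired analysis was possible because each treatment had 1 library. Depth limits genes under 50 CPM in the low-score sums.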

Other observations

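Prxl2a, a peroxiredoxin-like gene, was looked at after its values were seen. At least 5 UMIs of it were present in 0 of 454 PKCi and 7 of 420 control low-score cells, and in 8 of 4021 PKCi and 23 of 3840 control cells of the rest of the gate. The 7 control low-score cells had a median of 57103 UMIs, against 26104 over all control low-score cells.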
